A study of Caenorhabditis elegans with 2 samples.

Results

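The Notch pathway genes described here are lin-12, glp-1, lag-1, lag-2, apx-1, sup-17, adm-4, sel-12, hop-1 and aph-1, 10 of the 19973 protein-coding genes on the nuclear chromosomes. They were chosen by name, and every deposited region whose summit lay inside one of them or within 2 kb of either end was taken. The data are chromatin immunoprecipitation and sequencing of whole Caenorhabditis elegans hermaphrodites at the L4 larval stage. The worms were of strain OP248, a transgenic line that stably expresses MES-2 with a GFP-FLAG tag at its C terminus, and the antibody was against GFP. MES-2 is the worm Enhancer of zeste, the methyltransferase of Polycomb repressive complex 2. Both samples, biological replicates 1 and 2, belong to this 1 group. No worms without the tag were analysed here, so what MES-2 contributes and what any precipitation would give cannot be told apart. Whether the line still has untagged MES-2 is not given in the sources used here. Since whole animals were used, the cells that carry a site are unknown, and the lists hold no expression values against which stage or tissue could be checked.

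Notch signalling passes between touching cells. A ligand of the DSL family on 1 cell binds a Notch receptor on its neighbour, proteases of the ADAM family shed the outside of the receptor, and gamma-secretase then frees its intracellular part. That part enters the nucleus and joins the DNA-binding protein LAG-1 to switch on target genes. In the worm the receptor LIN-12 is known for fate choices in the gonad and the vulva, and GLP-1 for keeping germ line stem cells dividing at the tip of the gonad, where the distal tip cell supplies the ligand LAG-2.

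The values come from 4 deposited lists on ce11, each with a signal height per region, whose scale is not given in the sources used here. A region's rank counts from 1 at the highest signal of its own list. The pooled list and both replicate lists hold 30000 regions each. The thresholded list holds the 5501 regions that passed the authors' filter for reproducibility, and their ranks were the same in the pooled list. Signal is not compared between lists. Read numbers are not in the lists, which leaves the depth unknown. The tagged gene mes-2, on chromosome II, had 5 thresholded summits, the strongest at rank 46, and none of the 10 genes lies on that chromosome.

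Some of the pathway carried a thresholded region, and the genes differed widely in how strong it was. A thresholded summit lay in or within 2 kb of 5 of the 10 genes, namely adm-4, lag-1, lin-12, sup-17 and hop-1, against 31.8% of all protein-coding genes. With 10 genes, that count is not read as a property of the pathway. These 5 genes had 10 regions between them, 3 upstream of the gene, 4 inside it and 3 beyond its end. The other 5 genes, glp-1, lag-2, apx-1, sel-12 and aph-1, had none in the thresholded list. In the pooled list, which is labelled as peaks and background, all 10 had a summit in reach, against 52.3% of all protein-coding genes. A pooled region outside the thresholded list is therefore not read as a site of MES-2. The only pooled region at sel-12 had a −log10 q-value of 0.791. By the pooled signal of the strongest region the order was adm-4 (867), lag-1 (209), lin-12 (109), sup-17 (80.5), hop-1 (75.3), apx-1 (53.4), aph-1 (39.8), glp-1 (29.5), lag-2 (26.1) and sel-12 (20.9). The places of adm-4 at the top and of lag-1 above lin-12 were the same in both replicates. Other places were not. In replicate 1 sup-17 (60.1) lay above lin-12 (45.4), and aph-1 (23.1) lay just above hop-1 (22.7). In replicate 2 sup-17 (34.9) lay below both lin-12 (48.1) and hop-1 (43.6), and lag-2 (20.5) lay above glp-1 (19.5). The place of sel-12 at the bottom did not hold in either replicate, as described below.

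**Figure D1:**
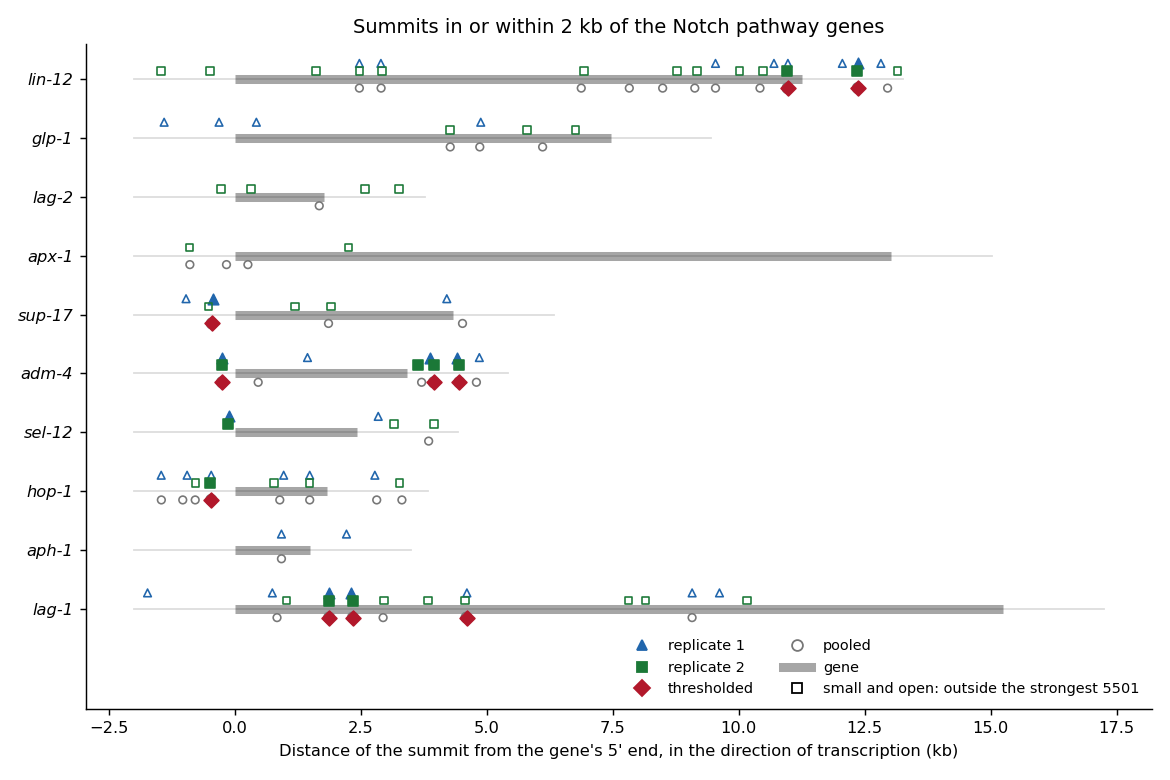
Summits of the 4 lists along the 10 genes, each drawn to scale from its 5' end in the direction of transcription with 2 kb on either side (x axis, kb). Diamonds are thresholded regions, triangles replicate 1, squares replicate 2 and open circles the pooled list, and the larger symbols are among the 5501 strongest of their list. Diamonds stand at 5 of the 10 genes, and the filled triangle and square before the start of sel-12 have no diamond or circle beside them.

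Between the genes, the strongest pooled region ran from among the highest of all genes to among the lowest of the genes that had one. The strongest pooled region of adm-4 was higher than that of 98.3% of protein-coding genes, a gene with no region counting as lower. The share was 83.7% for lag-1, 74.2% for lin-12, 69.5% for sup-17 and 68.5% for hop-1. For the remaining genes it lay between 48.7% for sel-12 and 62.8% for apx-1. Only 52.3% of genes had a pooled region, so the share of sel-12 is close to the lowest that a gene with a region can have. The strongest pooled regions of glp-1, lag-2 and sel-12 ranked 18285, 21092 and 26455 of 30000. The median of the strongest pooled signal was 64.3 over the 10 genes, against 24.0 over all protein-coding genes, of which 9537 had no pooled region in reach. The 10 genes were also longer, with a median of 3878 bp against 2027 bp. Of the 4993 longest protein-coding genes 43.8% had a thresholded summit in reach, against 26.1% of the 4994 shortest. The part of gene length in the members' values was not tested.

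**Figure D2:**
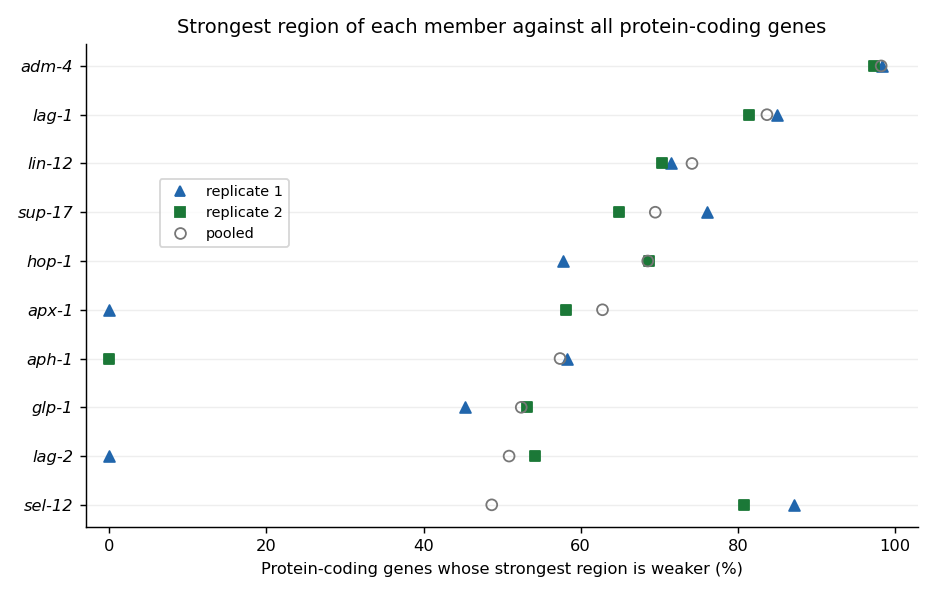
For each gene, the share of all protein-coding genes whose strongest region in or within 2 kb is weaker (x axis, %), in replicate 1, replicate 2 and the pooled list. A symbol at 0 means that the list has no region there. The symbols of adm-4 lie together near the right edge, while sel-12 is at 48.7% in the pooled list, 87.1% in replicate 1 and 80.8% in replicate 2.

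The proteases that shed the receptor's outer part both had a region before their start. The gene adm-4 encodes the worm counterpart of the mammalian sheddase TACE and lies on chromosome X from 7794875 to 7798298, on the minus strand. Its leading region covered 7798438 to 7798643, with the summit at 7798555, 257 bp upstream of the start and between genes. In this region the signal was 523 at rank 144 in replicate 1, 327 at rank 235 in replicate 2 and 867 at rank 158 in the pooled list. All 3 summits fell within 3 bp. No start of another protein-coding gene lay within 500 bp. The 300 bases centred on this summit are shown because they hold a match to the site of LAG-1, the CSL motif, in capitals. The strand shown, here and in all sequences below, is the plus strand of the reference.
adm-4 upstream region, chrX:7798405-7798704: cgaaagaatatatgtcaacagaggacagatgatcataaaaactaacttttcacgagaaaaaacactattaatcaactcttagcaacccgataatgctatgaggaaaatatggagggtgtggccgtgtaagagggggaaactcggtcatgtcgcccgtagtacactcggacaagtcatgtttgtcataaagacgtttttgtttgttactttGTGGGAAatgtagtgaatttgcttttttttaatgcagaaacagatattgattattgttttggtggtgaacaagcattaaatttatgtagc

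Beyond the other end of adm-4 stood a further pair of thresholded regions, and transfer RNA genes lay beside them. The summit at 7794351, 524 bp past the gene's end, lay inside the tRNA gene WBGene00023213 and the non-coding RNA gene ZK154.8 on the other strand, and a second tRNA gene, WBGene00023212, began 252 bp away. The signal there was 94.8 (rank 2021) in replicate 1 and 76.4 (rank 2626) in replicate 2. The other summit, at 7793846, was 1029 bp past the end of adm-4 but only 283 bp from the start of the next gene, ZK154.6. It had a signal of 55.1 (rank 3518) in replicate 1 and 80.6 (rank 2452) in replicate 2. Thus both lay nearer to other genes than to the start of adm-4. The sequence of the region at the tRNA gene is shown to let the gene's place in it be seen. Its capitals mark the bases of WBGene00023213, which make up 72 of the 135 bases.
region at the tRNA gene, chrX:7794314-7794448: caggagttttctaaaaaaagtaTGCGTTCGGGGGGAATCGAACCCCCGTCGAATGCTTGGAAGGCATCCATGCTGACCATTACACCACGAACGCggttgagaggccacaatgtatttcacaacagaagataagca

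The gene sup-17 encodes the worm Kuzbanian, the other receptor-shedding protease, and lies on chromosome I from 8792964 to 8797295. Its thresholded region, from 8792403 to 8792606, had its summit 459 bp upstream of the start, inside the non-coding RNA locus DY3.11, which is annotated on both strands. In this region the signal was 60.1 (rank 3228) in replicate 1, 34.9 (rank 6293) in replicate 2 and 80.5 (rank 4964) in the pooled list. Replicate 2 thus left it just outside its 5501 strongest regions. The replicates' summits were 100 bp apart, the widest spacing among the members' regions.

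The nuclear effector had 3 of the 4 thresholded regions that lay inside a member. LAG-1 is the worm CSL protein, which recognises DNA and carries the receptor's intracellular part to its targets. The gene lies on chromosome IV from 6095407 to 6110655, and all 3 of its thresholded regions were in introns downstream of the first start and upstream of its internal starts, the nearest of which was 1509 bp beyond the third summit. The first, from 6097129 to 6097399, had its summit 1868 bp into the gene, with a signal of 112 (rank 1648) in replicate 1 and 90.6 (rank 2145) in replicate 2. The second, from 6097654 to 6097829, lay 2341 bp into the gene and had 79.9 (rank 2442) in replicate 1 and 94.2 (rank 2060) in replicate 2. Replicate 1 was higher at the first region and replicate 2 at the second, and in the pooled list they were close, at 209 and 198. The third, with its summit at 6100003 and a pooled signal of 78.9, ranked 7412 in replicate 1 and 8493 in replicate 2. It is among the 5501 strongest regions of neither replicate. None of the 3 thresholded lag-1 summits lay within 500 bp of any protein-coding start.

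The 300 bases around the summit of each strong lag-1 region held the CSL motif more than once. The motif was searched as GTGGGAA and ATGGGAA on both strands in the 300 bases centred on each summit, and each of the pair of windows had 2 matches, all of them GTGGGAA. In the first window the matches began 100 and 85 bases before the summit on the minus strand. In the second they began 32 bases before and 76 bases after it on the plus strand, the later one running past the end of the listed region. Of all 5501 thresholded windows 47 (0.854%) had at least 2 matches and 524 (9.53%) at least 1. Of the 10 windows at members 3 held a match, the pair in lag-1 and the one upstream of adm-4, where GTGGGAA began 60 bases after the summit. A match of 7 letters is a description of the sequence and does not show a bound site. The windows are shown for these matches, in capitals, which read TTCCCAC where the match is on the minus strand.
lag-1 first intronic region, chrIV:6097125-6097424: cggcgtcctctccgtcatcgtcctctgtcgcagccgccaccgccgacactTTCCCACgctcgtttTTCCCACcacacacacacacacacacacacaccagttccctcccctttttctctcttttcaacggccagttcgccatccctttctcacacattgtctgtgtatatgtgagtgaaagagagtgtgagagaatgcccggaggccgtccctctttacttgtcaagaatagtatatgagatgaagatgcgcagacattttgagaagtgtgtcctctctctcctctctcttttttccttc
lag-1 second intronic region, chrIV:6097598-6097897: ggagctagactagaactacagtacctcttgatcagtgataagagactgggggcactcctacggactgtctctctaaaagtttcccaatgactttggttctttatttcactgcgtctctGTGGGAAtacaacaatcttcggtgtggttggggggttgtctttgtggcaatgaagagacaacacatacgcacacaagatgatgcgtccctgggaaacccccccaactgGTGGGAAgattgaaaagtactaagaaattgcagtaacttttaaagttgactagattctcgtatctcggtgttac

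The letters GAGAG, searched on both strands with overlapping matches counted, stood in 7 of the 10 member windows and in 62.0% of all thresholded windows. The first lag-1 window had 9 such matches. The GC content of that window was 51%, higher than in 93.5% of thresholded windows. The window upstream of adm-4 had 36.7%, and the lowest, at hop-1, had 33.7%. Over all 10 member windows the median was 36.8%, against 40.3% over all thresholded windows.

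Of the receptors, lin-12 had regions near its far end and glp-1 had none in the thresholded list. These genes lie 20768 bp apart on chromosome III. The gene lin-12 covers 9060221 to 9071472 on the minus strand. Its stronger region, from 9059006 to 9059209, lay 1113 bp past the gene's end, between genes, and 223 bp from the start of gst-1. It was steady between replicates, with 45.4 (rank 4374) in replicate 1 and 48.1 (rank 4327) in replicate 2. The second region, with its summit at 9060503 in a coding exon near the end of lin-12, was not. Its signal was 10.9 (rank 24298) in replicate 1 and 44.6 (rank 4740) in replicate 2. The pooled list places it at rank 5491 of the 5501 that passed. At the start of lin-12 the strongest summit within 500 bp was one of replicate 2 alone, 491 bp upstream, at rank 11838.

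The pooled list held 11 regions across lin-12, the 2 thresholded ones among them, or 0.721 per kb of the gene and its flanks. This density was above that of 80.7% of protein-coding genes. The −log10 q-values of the 11 ran from 3.91 down to 0.610, and the list includes background, so the density is not read as occupancy. Across glp-1 the pooled list held 3 regions, all in coding exons at least 4272 bp from the start, with a highest signal of 29.5 at rank 18285. Both replicates were weak at glp-1, the best rank being 22687 in replicate 1 and 13392 in replicate 2. The nearest thresholded summit, 2604 bp upstream of glp-1, was 262 bp from the start of mrpl-44.

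Neither ligand had a thresholded region. The genes lag-2, the ligand of the distal tip cell, and apx-1, which signals in the early embryo, also lie close together, 20080 bp apart on chromosome V. The replicate 1 list had no region at either gene. In replicate 2 lag-2 had 4 regions, the strongest 278 bp upstream of its start with a signal of 20.5 (rank 12596). At apx-1 replicate 2 had 2 regions, the strongest in an intron with a signal of 24.5 (rank 9881). The pooled list had a region 256 bp into apx-1, in a coding exon, with a signal of 53.4 at rank 8270, outside the 5501, and no region of either replicate lay there. Since depth is unknown, a region too weak to be listed cannot be told apart from none.

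The gamma-secretase genes gave the widest gap between the lists. The presenilin gene sel-12, on chromosome X from 915867 to 918290, had a strong region just before its start in each replicate and none there in the pooled list. The signal was 130 (rank 1377) in replicate 1, with the summit 113 bp upstream, and 89.4 (rank 2179) in replicate 2, with the summit 132 bp upstream. Each rank is within the first 2750 of its list, beside the leading lag-1 region at ranks 1648 and 2145. The nearest pooled region was 3796 bp away from that of replicate 1, so the thresholded list, which was drawn from the pooled one, has no sel-12 region either. Counting by the thresholded list alone therefore leaves out a gene that both replicates place high.

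The loss seen at sel-12 was uncommon but not unique. Of the 5501 strongest regions of replicate 1, 3728 overlapped one of the 5501 strongest of replicate 2, and 132 of these (3.54%) overlapped no region of the pooled list. On chromosome X it was 33 of 635 (5.20%). What removed them from the pooled list was not tested. The region of replicate 1 is shown because no pooled or thresholded entry gives it, and its capitals run from the summit of replicate 2 to that of replicate 1. It held no CSL match and 1 GAGAG match.
sel-12 upstream region, chrX:915690-915813: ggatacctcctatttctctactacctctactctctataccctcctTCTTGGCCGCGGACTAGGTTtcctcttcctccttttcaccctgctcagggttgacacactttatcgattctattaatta

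The second presenilin gene, hop-1, lies on chromosome I from 4208515 to 4210341 on the minus strand, and its upstream region was uneven between replicates. The summit at 4210813 was 472 bp upstream of hop-1 and 166 bp from the start of swsn-2.2, which is transcribed the other way. Its signal was 16.0 (rank 16280) in replicate 1 and 43.6 (rank 4872) in replicate 2. The pooled rank of 5336 is near the bottom of the thresholded list. The pooled list held 8 regions here, the thresholded one among them, or 1.37 per kb of the gene and its flanks, more than at 97.3% of protein-coding genes. Their −log10 q-values ran from 3.18 down to 0.695, and this density is not read as occupancy either. Only the summits at 4208858 and 4209452 lay inside hop-1. The others were in its flanks, those upstream nearest to the start of swsn-2.2. The gene aph-1, which encodes a further subunit of the complex, had 1 pooled region, in a coding exon with a signal of 39.8 (rank 12374). Replicate 1 had a region with the same summit (rank 11881) and another beyond the end of aph-1 (rank 10153), and replicate 2 had none.

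Agreement between the replicates differed from region to region. Of the 10 thresholded regions at these genes, 6 were among the 5501 strongest of both replicates, the 3 of adm-4, the first pair of lag-1 and the stronger one of lin-12. Over all thresholded regions this share fell with rank, from 99.5% of the strongest 551 to 4.73% of the weakest 550. Counted by gene, 3 of 10 had a thresholded region among the 5501 strongest of both replicates, against 25.5% of all protein-coding genes. The ratio of the larger to the smaller rank ran from 1.01 at the stronger lin-12 region to 5.13 at the weaker one, and was 3.34 at hop-1. Over the 5235 thresholded regions found in both replicates the median ratio was 1.53, and 3.19% of them exceeded the ratio of the weaker lin-12 region. The regions of sup-17, hop-1, the third of lag-1 and the weaker one of lin-12 all had pooled ranks from 4964 to 5491, which puts them among the 550 weakest thresholded regions. Of these 550, only 26 (4.73%) were among the 5501 strongest of both replicates. At any rank, 489 were found in both, with a median ratio of 1.79. The ratios of these 4 member regions were spread widely, from 1.15 at the third lag-1 region through 1.95 at sup-17 to the values of hop-1 and lin-12. The strongest region, upstream of adm-4, had a ratio of 1.63.

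**Figure D3:**
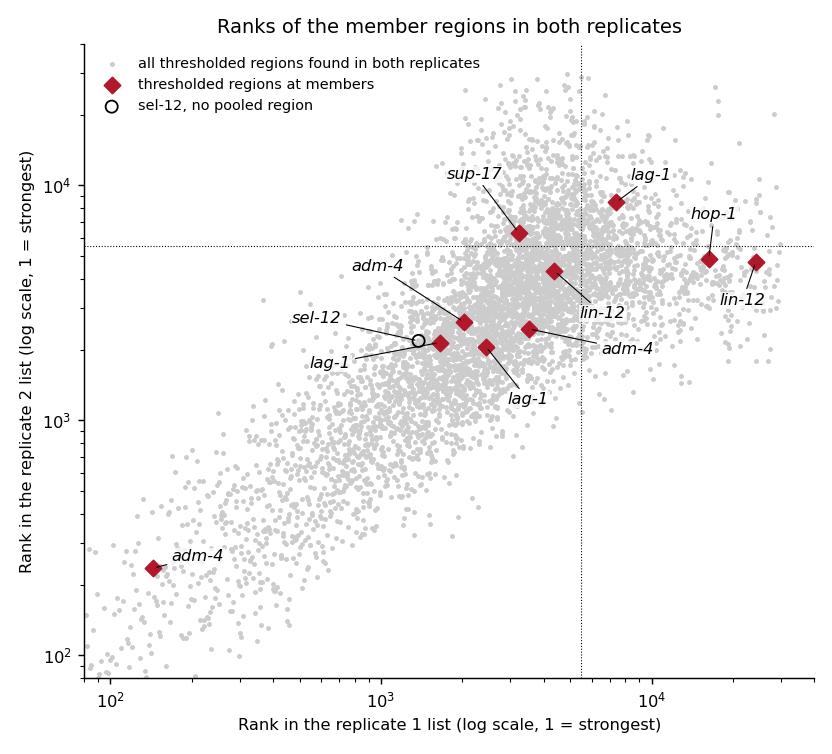
Rank of each thresholded region in replicate 1 (x axis, log scale) and replicate 2 (y axis, log scale), 1 being the strongest; the very strongest lie outside the range drawn. Diamonds are the 10 regions at members, the circle is the sel-12 pair, grey points are all thresholded regions found in both replicates, and dotted lines mark rank 5501. The leading adm-4 region stands apart at ranks 144 and 235, and hop-1 and 1 lin-12 region lie far to the right, low in replicate 1.

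A region within 500 bp of a gene's start was found at 3 of the 10 genes in the thresholded list, adm-4, hop-1 and sup-17, against 16.6% of all protein-coding genes. The same count came from each replicate alone, but not the same genes. Among the 5501 strongest regions of replicate 1 the genes were adm-4, sup-17 and sel-12, against 16.1% of all genes. In replicate 2 they were adm-4, hop-1 and sel-12, against 17.1%. Both replicates thus share adm-4 and sel-12. The 3 thresholded summits lay 257 to 472 bp from the starts, so none of the genes counted with a reach of 250 bp, while 11.3% of all genes did.

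Other genes of the pathway were taken from a list by role, of which 46 of 47 symbols matched the annotation (lst-3 did not). A thresholded summit lay in or within 2 kb of 26 of the 46 (56.5%), and 11 (23.9%) had one within 500 bp of a start, against 31.8% and 16.6% of all protein-coding genes. The modulators, which act in receptor turnover, traffic or chromatin, had 14 of 17 with a region and 8 with one at a start, to be read beside the same 31.8% and 16.6%, and no test of this role was made. The other ligands and co-ligands had 4 of 13 with a region, and the target genes had 6 of 13, none of them at a start. The remaining gamma-secretase genes were pen-2, with a region, and aph-2, with none in any list. The co-activator gene sel-8, whose product joins LAG-1 and the receptor fragment, had 2 regions. The median strongest pooled signal was 98.3 over the 46 genes, against 24.0 over all genes.

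The strongest of these start regions was that of sel-10, whose F-box protein directs the receptor fragment to degradation, with a signal of 343 and ranks of 1285 in replicate 1 and 852 in replicate 2. It was followed by epn-1, the epsin of endocytosis (287, ranks 513 and 1990), emb-5, an Spt-like factor of transcription elongation (242, ranks 1600 and 1913), and dos-1, a secreted co-ligand (236, ranks 1821 and 1056). The others were sel-5, a kinase (195), alx-1, an endosomal sorting protein (135), sel-1 of protein turnover in the endoplasmic reticulum (135), pen-2 (126), spr-3, a zinc-finger suppressor of presenilin mutants (102), osm-11, a co-ligand (80.2), and sel-2, an endosomal traffic protein (79.0). The sel-5 and pen-2 summits were also in reach of another gene's start, wdr-48 and T28D6.6. All of these were weaker than the leading adm-4 region.

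The 10 genes were set beside lists of other signalling pathways. A thresholded summit was in reach of 5 of the 10 Notch genes, against 12 of 27 Wnt genes (44.4%), 11 of 19 TGF-beta genes (57.9%) and 14 of 22 EGF and Ras genes (63.6%). Start regions were found at 3 of the 10, against 6 of 27, 2 of 19 and 5 of 22. The medians of the strongest pooled signal were 64.3 for Notch, 66.1 for Wnt, 104 for TGF-beta and 116 for EGF and Ras. No test of these differences was made.

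**Figure D4:**
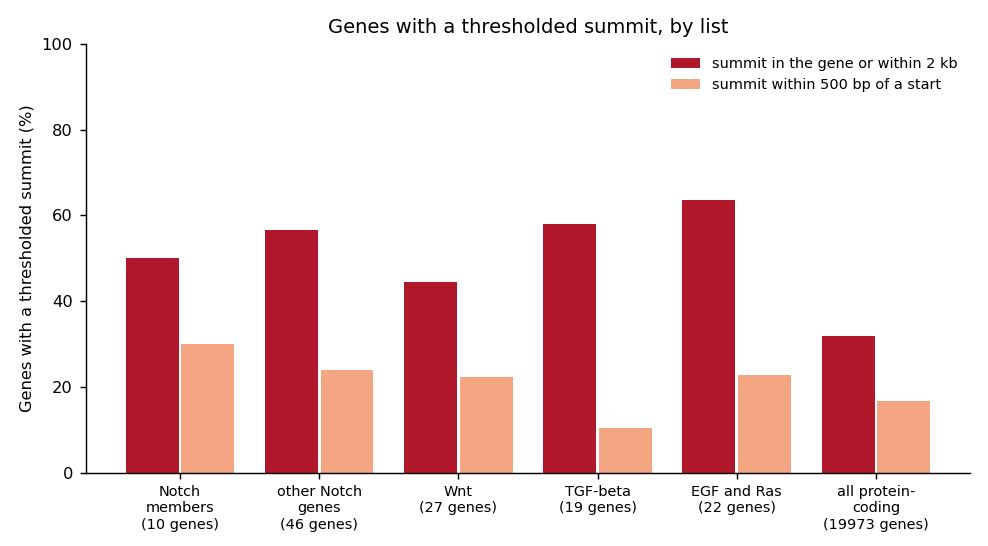
Share of genes with a thresholded summit in the gene or within 2 kb (dark bars) and within 500 bp of a start (light bars), in % of each list (y axis). The Notch genes, at 50% and 30%, lie within the span of the other signalling lists for the first measure, and all protein-coding genes are at 31.8% and 16.6%.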

How the data were processed

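Tagged MES-2 was precipitated from whole L4 hermaphrodites in 2 biological replicates of 1 group. The labels give each replicate its own biosample. The authors' deposited ce11 files are peak lists in narrowPeak layout. Per the submitters' file lists, an unthresholded list was called on each replicate and on their pooled alignments against a control alignment, and the thresholded list was made from these by irreproducible discovery rate. Aligner, caller and threshold: not given in the sources used here. In each list the deposited signal column holds the caller's own height per region, used only to describe and rank regions within a list. The deposited −log10 column holds q-values by the layout's definition. It served for a relaxed list, the pooled regions with a value of at least 2, and to describe pooled regions at members.

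Summits were placed 1-based in the Ensembl release 115 annotation of WBcel235, the assembly of ce11, and all regions lay within its chromosome lengths. Starts are those of any transcript of a protein-coding gene. Overlap means at least 1 bp. Bases came from the RefSeq genome of WBcel235. Python 3.11.15 with pandas 2.3.3 was used, and the counting was tested on simulated summits. No test of significance was made. The genes and lists were chosen with earlier results of these data known. The lists of other Notch, Wnt, TGF-beta and EGF and Ras genes were matched by symbol, which missed lst-3 and mdt-23. Genes named outside the 10 are those of the wider Notch list with a start region, the genes at or near a named summit, and mes-2. From the wider list sel-8 and aph-2 are also named for their role. No ce10 list was used here, since the annotation is of ce11.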

Additional observations from a re-analysis of the deposited data

How the results depend on the processing

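The count of 5 Notch genes with a thresholded region was also 5 with a window of 1 kb, with overlap in place of summits and in each replicate alone. For the first of these settings the count over all protein-coding genes was 5218, and for overlap it was 6435. The Notch count was 7 with a window of 5 kb, beside 8909 (44.6%) of all protein-coding genes. It was also 7 in the relaxed list, beside 9412 of all protein-coding genes. All these Notch counts stayed within 1.5 times of 5. With each replicate alone the genes changed, sel-12 standing in place of hop-1 in replicate 1 and of sup-17 in replicate 2. The count of Notch genes was 2 with summits inside the gene only and 2 with the 2750 strongest thresholded regions. Their 10 regions became 4 under each of these and 23 in the relaxed list, and 8 to 10 with a replicate left out. The count over all 19973 protein-coding genes was 1453 with summits inside the gene only and 4423 with the strongest 2750, against 6351. It was 6399 to 6614 with a replicate left out. The wider Notch list had 5 genes with summits inside the gene only, against 26, and 14 with the strongest 2750, and gave 23 to 24 with a replicate left out. Genes with a start region numbered 0 at 250 bp and 1 with the strongest 2750, against 3, and 3 with either replicate left out. Genes supported by both replicates numbered 5 with all replicate regions, against 3. For this setting, and for start regions in the strongest 2750, the share over all protein-coding genes is not given here. The median place of the strongest region, as a percent of its list, was 22.7 in the pooled list and 18.6 to 24.2 with a replicate left out. It was taken over all 10 genes, a gene with no region in the remaining list counting as last. Regions of both replicates without a pooled region numbered 61 when the limit was 2750 in place of 5501, a choice made after seeing the data, against 132. The narrower windows and shorter lists count fewer regions by construction, and the relaxed and full lists more. For the shifts with a replicate left out the cause was not tested. No paired analysis was possible because there is only 1 group. Depth is unknown and limits what an unlisted region can show.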
